A study of Mus musculus with 12 samples.

Results

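Mucins are glycoproteins whose serine- and threonine-rich stretches carry dense O-linked sugar chains. The genes described here are 5 cell-surface mucins, Muc1, Muc4, Muc13, Muc15 and Muc20, measured in mouse uterine epithelial and stromal cells grown together in primary co-culture. The genes were found through the probe sets whose single gene symbol was 1 of these 5 names, which gave 5 probe sets, 1 per gene, of the 23410 with a symbol that were tested and the 35556 on the array. All 5 were tested, and no filter on low values was applied.

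Both cell layers came from uteri of CD-1 mice on day 4 of pseudopregnancy, digested with enzymes into epithelial sheets, which were seeded on matrigel-coated inserts, and stromal cells, which were seeded on cover slips. The co-cultures spent a night in medium with hormone-depleted serum and then 2 days with estradiol (E2) at 10 nM or with the ethanol vehicle at 0.01%, after which each layer was harvested by itself. Crossing layer with treatment gave 4 groups of 3 arrays, 12 in all. The study asked what E2 changes in each layer when the other layer is present. Every layer had its partner in the well, so no group shows epithelium or stroma alone, and the source of replicate arrays, separate animals or repeats of a culture, is not in the labels. The p-values therefore cover the spread between these samples, which may be technical.

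Cell-surface mucins span the membrane once, with a heavily glycosylated outer part and a short cytoplasmic tail, and they form much of the glycocalyx that coats wet epithelia. Muc1 is the best known of them in the uterus, where it covers the luminal epithelium, responds to ovarian hormones and is thought to keep an embryo from attaching until it is removed or masked. Their sugar chains are started in the Golgi by GalNAc transferases, lengthened and capped by further enzymes, and their outer parts can be cut off by membrane proteases.

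The promoters of Muc1 and Muc13 are shown because these genes had opposite places in the data. Muc1 was an epithelial mucin, as Muc4 also was, and Muc13 was the mucin that rose with E2 in stroma. The RefSeq table (GRCm38.p6) held a promoter for 4 of the 5 genes, all but Muc15, and held 2 annotated starts of Muc13 lying 452 bases apart. Printed are the 250 bases before the start of Muc1 (chr3:89228806-89229055, plus strand) and before the upstream start of Muc13 (chr16:33793787-33794036, plus strand), 5′ to 3′, with capitals for matches to any of the 7 motifs searched on both strands.
Muc1: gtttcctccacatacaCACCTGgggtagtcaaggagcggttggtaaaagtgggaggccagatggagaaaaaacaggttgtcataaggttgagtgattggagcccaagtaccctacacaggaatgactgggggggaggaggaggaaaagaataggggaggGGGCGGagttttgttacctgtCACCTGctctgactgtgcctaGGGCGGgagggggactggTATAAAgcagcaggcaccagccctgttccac
Muc13: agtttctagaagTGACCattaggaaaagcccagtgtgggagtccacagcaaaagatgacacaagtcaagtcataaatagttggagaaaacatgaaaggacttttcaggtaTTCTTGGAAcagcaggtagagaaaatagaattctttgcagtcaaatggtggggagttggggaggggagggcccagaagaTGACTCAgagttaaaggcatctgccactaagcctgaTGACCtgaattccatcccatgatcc

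The motifs were the full estrogen response element (a half-site and its reverse complement 3 bases apart), its half-site GGTCA, the Sp1 box GGGCGG, the AP-1 site TGANTCA, the STAT site TTCNNNGAA, the E-box CACCTG and the TATA box TATAAA, and a full estrogen response element would also count as 2 half-sites. The full estrogen response element was in none of the windows of these mucins, and in 21 of the 32817 promoter windows of the table (0.064%). The Muc1 window held 2 Sp1 boxes (a motif found in 32.7% of all windows), 2 E-boxes (17.2%) and, from 31 to 26 bases before the start, a TATA box (12.4%). The window of the upstream Muc13 start held 2 half-sites (35.2% of all windows), 1 AP-1 site (6.75%) and 1 STAT site (7.01%). The window of the downstream Muc13 start held 3 half-sites and 1 AP-1 site, TGAGTCA, from 179 to 173 bases before that start. Muc4 had a TATA box alone, and Muc20 had 1 half-site and 1 E-box. These are matches of letters, and no binding was measured here.

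Values are log2 signals of RMA, the array summary used by the authors, so a difference of 1 is a doubling of the signal. The medians of the arrays over the probe sets tested lay between 7.38 and 7.43. Differences are given ± their limma standard error, with 3 arrays in each group, and SDs are named as such. Adjusted p-values are those of limma after Benjamini-Hochberg adjustment over all 23410 probe sets and passed under 0.05. No test of signal against background was made, and folds are ratios of signals, which need not equal ratios of transcripts where 1 layer is dim. Levels of different genes are not compared, since each probe set has its own brightness.

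Epithelial markers separated the layers clearly and stromal markers by much less. Of 18 epithelial markers, all 18 measured higher in the epithelial than the stromal layer under vehicle and 17 passed. Of all probe sets 7.27% passed in that direction. The mean of the 18 markers per array was 9.35 to 11.06 in the epithelial against 6.70 to 7.13 in the stromal arrays. Stromal markers were also high on the inserts, where their mean was 9.51 to 10.33, against 10.50 to 10.80 in stroma. Under vehicle 12 of 17 measured lower in epithelium, 10 of which passed, and 5 measured higher. Of all probe sets 14.1% passed as lower there. They were uneven. The collagen gene Col1a1 was at 12.65 ± 0.22 (SD) in epithelial and 12.63 ± 0.14 (SD) in stromal vehicle arrays. Twist2 was at 8.42 ± 0.86 (SD) and 11.25 ± 0.06 (SD) in the same groups. Mesothelial markers were also higher in the epithelial arrays (9.55 to 10.33, against 6.99 to 7.29 in stroma). The epithelial arrays spread more, with a median SD of 0.185 under vehicle and 0.158 under E2, against 0.0946 and 0.0804 in stroma.

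**Figure D1:**
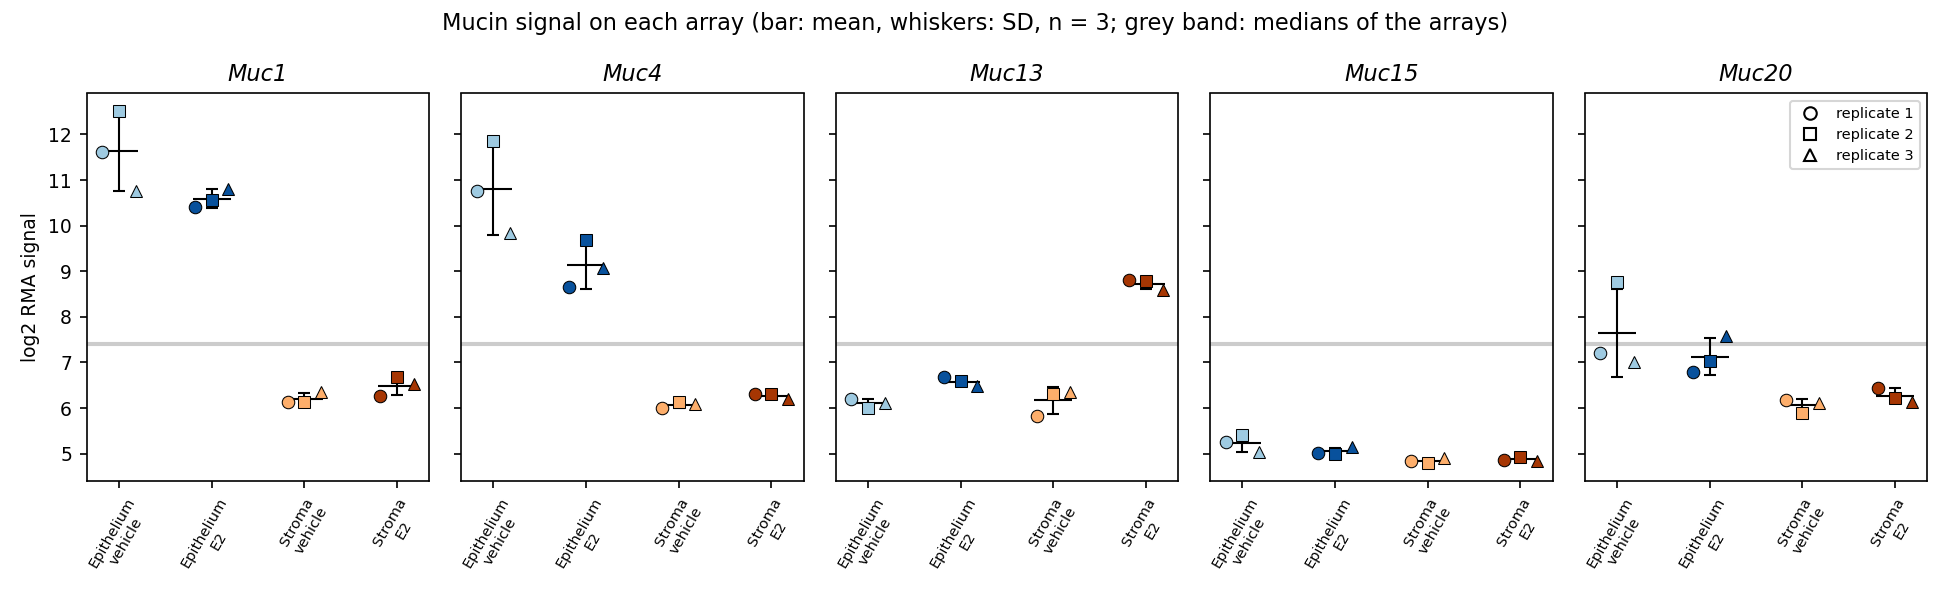
Log2 RMA signal of the 5 mucins on each of the 12 arrays, by layer and treatment. Points are arrays (circle, square and triangle for replicates 1, 2 and 3), the short bar is the mean, the whiskers are SD (n = 3), and the grey band spans the array medians of 7.38 to 7.43. Muc1 and Muc4 stand high in the epithelial arrays alone, Muc13 in the stromal E2 arrays alone, where it lay between 8.59 and 8.80.

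The first question was which layer carried each mucin without hormone. Muc1 and Muc4 were epithelial, by 42.9-fold and 26.6-fold of signal over stroma, Muc20 was epithelial by 3.01-fold, Muc15 differed by 1.31-fold, and Muc13 did not differ by the test. Thus 4 of the 5 were higher in epithelium, where 7.27% of all probe sets passed in that direction, 14.1% in the other and 21.4% in either. The layers did not overlap in these 4 genes, nor in 36% of all probe sets. The median difference of the 5 was 1.59, and that of all probe sets tested was 0.02.

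Muc1 measured 11.62, 12.51 and 10.75 in the epithelial vehicle arrays (replicates 1, 2 and 3) and 6.13, 6.13 and 6.36 in the stromal vehicle arrays. Every epithelial array was far above every stromal one, and replicate 2 was the highest. The difference was 5.42 ± 0.33 (95% interval 4.70 to 6.15, adjusted p = 2.85e-06).

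Muc4, a large mucin that can bind the growth factor receptor Erbb2 through its EGF-like domains, measured 10.76, 11.85 and 9.83 in epithelium and 6.0, 6.14 and 6.09 in stroma. The order of the epithelial arrays was that of Muc1, with replicate 2 highest and replicate 3 lowest, and the layers did not overlap. The difference was 4.73 ± 0.40 (95% interval 3.86 to 5.61, adjusted p = 2.09e-05).

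Muc20, a mucin known to interact with the hepatocyte growth factor receptor Met, measured 7.21, 8.76 and 7.0 in epithelium and 6.18, 5.89 and 6.12 in stroma. Replicate 2 again stood highest, above the array medians, with the other two epithelial arrays below them. The difference was 1.59 ± 0.37 (adjusted p = 0.0105), and it was 1.04 without epithelial vehicle replicate 2 (adjusted p = 0.00388).

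Muc15, a smaller membrane mucin, measured 5.25, 5.41 and 5.03 in epithelium and 4.83, 4.8 and 4.90 in stroma, far below the array medians on every array. The difference of 0.39 ± 0.10 passed (adjusted p = 0.0171), but it did not pass after quantile normalization (0.23, adjusted p = 0.246) or cyclic loess (0.27, adjusted p = 0.148). It also did not pass without epithelial vehicle replicate 1 (adjusted p = 0.0506), stromal vehicle replicate 1 (0.0544) or stromal vehicle replicate 2 (0.0642).

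Muc13, a mucin best known from gut epithelium that carries EGF-like domains, measured 6.19, 6.01 and 6.12 in epithelium and 5.83, 6.32 and 6.36 in stroma. The epithelial arrays lay within the stromal range, all of them below the array medians. The difference was -0.07 ± 0.13 (95% interval -0.36 to 0.23, adjusted p = 0.760), and its sign turned without stromal vehicle replicate 2 (0.01) or replicate 3 (0.03).

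The second question was what E2 did to each mucin in the epithelial layer. Muc4 fell by 1.67 ± 0.40 on the log2 scale (3.18-fold), at the edge of the threshold, and was the 1 member of 5 that passed, where 1.12% of all probe sets passed as lower (2.9% in either direction). Muc1, Muc15 and Muc20 measured lower and Muc13 higher, without passing. The median difference of the 5 was -0.52, against 0.03 for all probe sets tested.

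Muc4 measured 8.66, 9.69 and 9.07 under E2, against 10.76, 11.85 and 9.83 under vehicle. All 3 E2 arrays lay below all 3 vehicle arrays, as for 8.04% of all probe sets, with E2 replicate 2 and vehicle replicate 3 close to each other. The adjusted p was 0.0492 (95% interval -2.54 to -0.80), and the call held in 7 of 22 alternatives. Leaving out any 1 of the other arrays raised the adjusted p to between 0.0643 and 0.188, whereas without vehicle replicate 3 it was 0.00282 (-2.16). The difference was -1.15 without vehicle replicate 2, -1.02 with array weights and never above 0.

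Muc1 measured 10.40, 10.56 and 10.81 under E2, against 11.62, 12.51 and 10.75 under vehicle. The E2 arrays lay close together, and vehicle replicate 3 fell among them, so the groups overlapped. The difference of -1.04 ± 0.33 (95% interval -1.76 to -0.32, adjusted p = 0.130) did not pass. It was -0.60 without vehicle replicate 2 (adjusted p = 0.238), and it passed without vehicle replicate 3 (-1.48, adjusted p = 0.00441) and with array weights (-0.88, adjusted p = 0.0141). With those weights 4706 of the 23410 probe sets passed for E2 in epithelium, against 678 without them.

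Muc20 measured 6.79, 7.03 and 7.58 under E2, overlapping the vehicle arrays. Its difference was -0.52 ± 0.37 (adjusted p = 0.578) and rested on vehicle replicate 2, without which it was 0.03. Muc15 measured 5.01, 5.0 and 5.14 under E2, a difference of -0.18 ± 0.10 (adjusted p = 0.422).

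Muc13 measured 6.68, 6.59 and 6.48 under E2, against 6.19, 6.01 and 6.12 under vehicle. Each E2 array was above each vehicle array by a small step, a separation that 6.95% of all probe sets showed in that direction. The difference of 0.48 ± 0.13 (95% interval 0.18 to 0.77, adjusted p = 0.0877) did not pass, but it did without stromal vehicle replicate 1 (adjusted p = 0.0337) and with array weights (0.45, adjusted p = 0.0388). The weighted fit also passed 4706 of the 23410 probe sets.

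Epithelial markers moved in the same arrays as Muc1, Muc4 and Muc20. Their mean was 10.43, 11.06 and 9.43 in the vehicle arrays (replicates 1, 2 and 3) and 9.35, 9.56 and 9.64 under E2, so that vehicle replicate 3 fell among the E2 arrays here as it did for Muc1. Of the 18 markers 17 measured lower with E2, with a median of -0.75. The tight junction claudin Cldn4 was the 1 that passed (-1.24 ± 0.25, adjusted p = 0.0224), where 1.12% of all probe sets passed as lower. Stromal markers ran the other way in the vehicle arrays, at 9.78, 9.51 and 10.32, and were 10.33, 10.31 and 10.13 under E2. Leukocyte markers were 8.41, 8.12 and 8.43 under vehicle and 8.94, 9.05 and 8.28 under E2. Of 17 stromal markers 12 measured higher with E2, and of 14 leukocyte markers 12, with 1 of each list passing as higher. Mesothelial markers were 9.62, 9.73 and 10.33 under vehicle and 9.82, 9.55 and 9.83 under E2, and 1 of 6 passed as lower. Of 8 endothelial markers 1 passed as higher, and of 8 smooth muscle markers 1 as lower. Of all probe sets 1.77% passed as higher. The part of these shifts in the mucin differences was not tested, and in bulk RNA fewer cells of a type and less RNA per cell cannot be told apart.

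**Figure D2:**
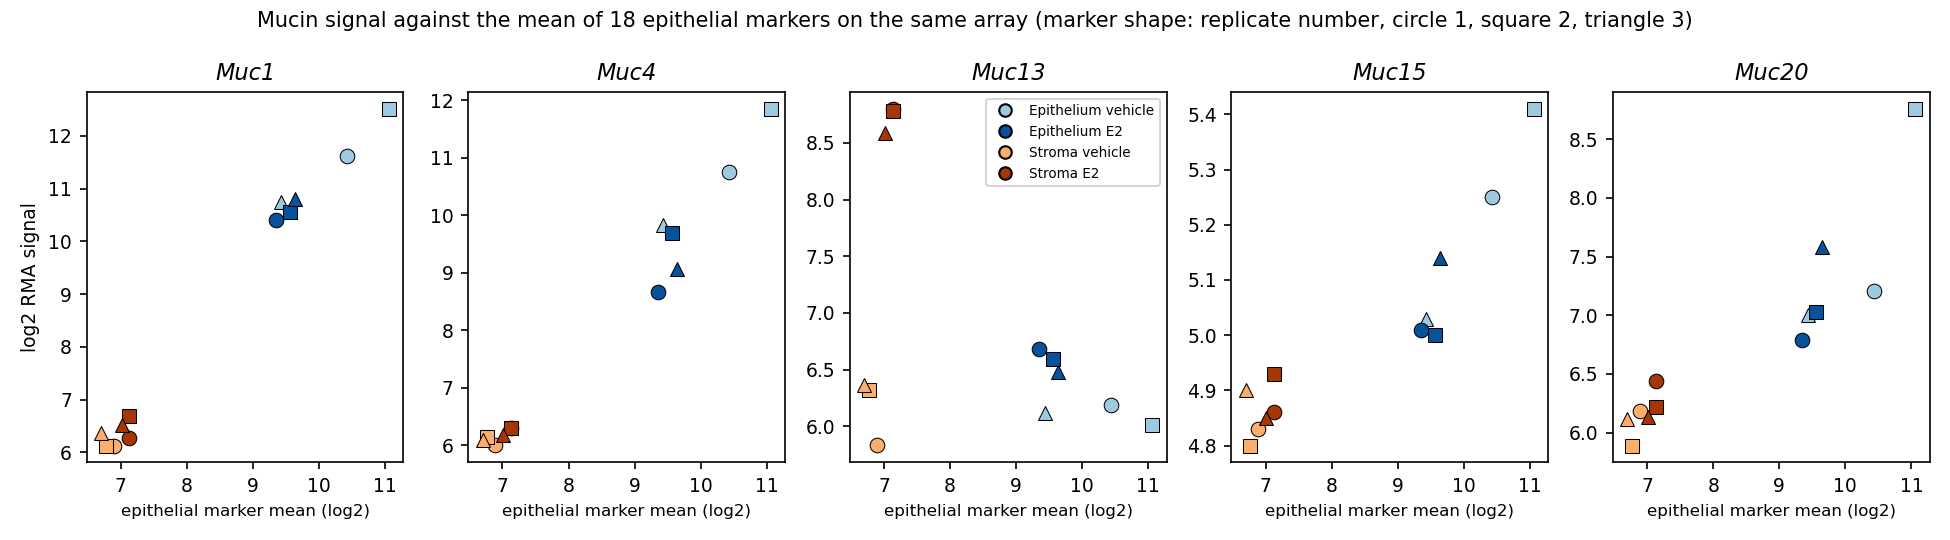
Log2 RMA signal of each mucin (vertical axes, each with its own scale) against the mean log2 signal of 18 epithelial markers on the same array (horizontal axes), for the 12 arrays coloured by group. The epithelial vehicle arrays spread from 9.43 to 11.06 on the marker axis, with Muc1 between 10.75 and 12.51 on them, while the stromal E2 arrays with high Muc13 lie between 7.01 and 7.13 on that axis.

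The third question was what E2 did in stroma. Muc13 rose 5.86-fold, the 1 member of 5 that passed, where 1.52% of all probe sets passed as higher and 1.98% as lower (3.5% in either direction). The other 4 measured 0.04 to 0.29 higher on the log2 scale, below the medians of the arrays and without passing. The median difference of the 5 was 0.20, and that of all probe sets 0.03.

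Muc13 measured 8.80, 8.78 and 8.59 under E2, against 5.83, 6.32 and 6.36 under vehicle. The E2 arrays stood together above the array medians, and the vehicle arrays were all below them. The difference was 2.55 ± 0.13 (95% interval 2.26 to 2.85, adjusted p = 5.25e-06), with the rank of 3 by p-value among the 23410 probe sets. It passed in 22 of 22 alternatives, with differences from 2.38 to 2.65.

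Muc1 measured 6.27, 6.69 and 6.52 in stroma under E2, overlapping the vehicle arrays, a difference of 0.29 ± 0.33 (95% interval -0.44 to 1.01, adjusted p = 0.887). Muc4 measured 6.30, 6.31 and 6.19 and did not overlap its vehicle arrays, as 15.9% of all probe sets did not in that direction, but its difference of 0.19 ± 0.40 did not pass (adjusted p = 0.945). That standard error comes from a spread shared with the epithelial arrays, where Muc4 varied far more. On the 6 stromal arrays alone the Muc4 difference was 0.19 ± 0.07 and did not pass either (adjusted p = 0.138). Muc20 measured 6.44, 6.22 and 6.13 (0.20 ± 0.37, adjusted p = 0.939) and Muc15 4.86, 4.93 and 4.85 (0.04 ± 0.10, adjusted p = 0.962). The Muc15 difference was -0.01 after quantile normalization.

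Epithelial markers also moved in stroma, from a mean of 6.70 to 6.89 under vehicle to 7.01 to 7.13 under E2. Of the 18, 15 measured higher with a median of 0.16, and 1 passed, the keratin Krt7 (1.32 ± 0.28, adjusted p = 0.0240). The markers were uneven in stroma. Epcam (5.65 ± 0.39 (SD) under vehicle, 5.91 ± 0.19 (SD) under E2) and Cdh1 (6.96 ± 0.29 (SD), 6.87 ± 0.19 (SD)) were below the array medians in both groups. The keratin Krt18 measured 8.04 ± 0.68 (SD) under vehicle and 9.40 ± 0.42 (SD) under E2 (1.35 ± 0.34, adjusted p = 0.0562), and Prom1 6.60 ± 0.12 (SD) and 7.33 ± 0.14 (SD), neither passing. Krt8 (7.89 and 7.76) and the claudin Cldn3 (8.01 and 8.06) were above the medians in both. Smooth muscle markers had means of 11.41 to 11.53 under vehicle and 11.68 to 11.75 under E2. Of these 8, 7 measured higher (median 0.24) and 2 passed, the calponin Cnn1 (0.60 ± 0.08, adjusted p = 0.00175) and the leiomodin Lmod1 (0.42 ± 0.10, adjusted p = 0.0403). Of 8 endothelial markers, 1 fell, the cadherin Cdh5 (-1.50 ± 0.26, adjusted p = 0.00771). Of all probe sets 1.52% passed as higher with E2 in stroma and 1.98% as lower. Leukocyte markers were 9.11 to 9.26 under vehicle and 8.73 to 8.99 under E2. Of these 14, 11 measured lower and 3 higher (median -0.41), with 0 passing in limma's test, whose spread is shared with the epithelial arrays. The part of these shifts in the rise of Muc13 was not tested.

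The E2 effects of the layers were then compared with each other. Muc13 rose more in stroma than in epithelium, by 2.07 ± 0.19 (95% interval 1.66 to 2.49, adjusted p = 0.00197), the 1 member of 5 that passed, where 0.91% of all probe sets passed, 0.269% in that direction and 0.641% in the other. It passed in 21 of 21 alternatives, with differences from 1.91 to 2.21. The effects of Muc4 (1.86 ± 0.56, adjusted p = 0.193), Muc1 (1.33 ± 0.47, adjusted p = 0.285), Muc20 (0.72 ± 0.53, adjusted p = 0.806) and Muc15 (0.22 ± 0.14, adjusted p = 0.740) were not shown to differ between layers. Without epithelial vehicle replicate 3 those of Muc1 (1.77, adjusted p = 0.0140) and Muc4 (2.35, adjusted p = 0.0145) passed. With array weights Muc1 (1.26, adjusted p = 0.00828) and Muc4 (1.27, adjusted p = 0.0342) passed too, but so did 4488 of the 23410 probe sets, against 213 without weights.

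Under E2 the layers differed in Muc1, Muc4 and Muc13. Muc1 was 17.1-fold (4.09 ± 0.33, adjusted p = 1.86e-05) and Muc4 7.32-fold (2.87 ± 0.40, adjusted p = 0.000632) higher in epithelium, while Muc13 was 4.41-fold higher in stroma (-2.14 ± 0.13, epithelium minus stroma, adjusted p = 4.28e-06). These were 2 of 5 members higher and 1 lower, where 4.43% and 9.18% of all probe sets passed (13.6% in either direction). Muc20 (0.87 ± 0.37, adjusted p = 0.160) and Muc15 (0.17 ± 0.10, adjusted p = 0.295) did not pass, although the layers did not overlap in either gene, as they did not in 38.9% of all probe sets. Muc20 did pass without epithelial vehicle replicate 2 (adjusted p = 0.00624), on the 6 arrays compared (0.0273) and with array weights (0.74, adjusted p = 0.000108). With the weights 11798 of the 23410 probe sets passed between E2 layers, against 3184 without them. The comparisons of layers and of treatments share arrays, so their values are not independent of each other.

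**Figure D3:**
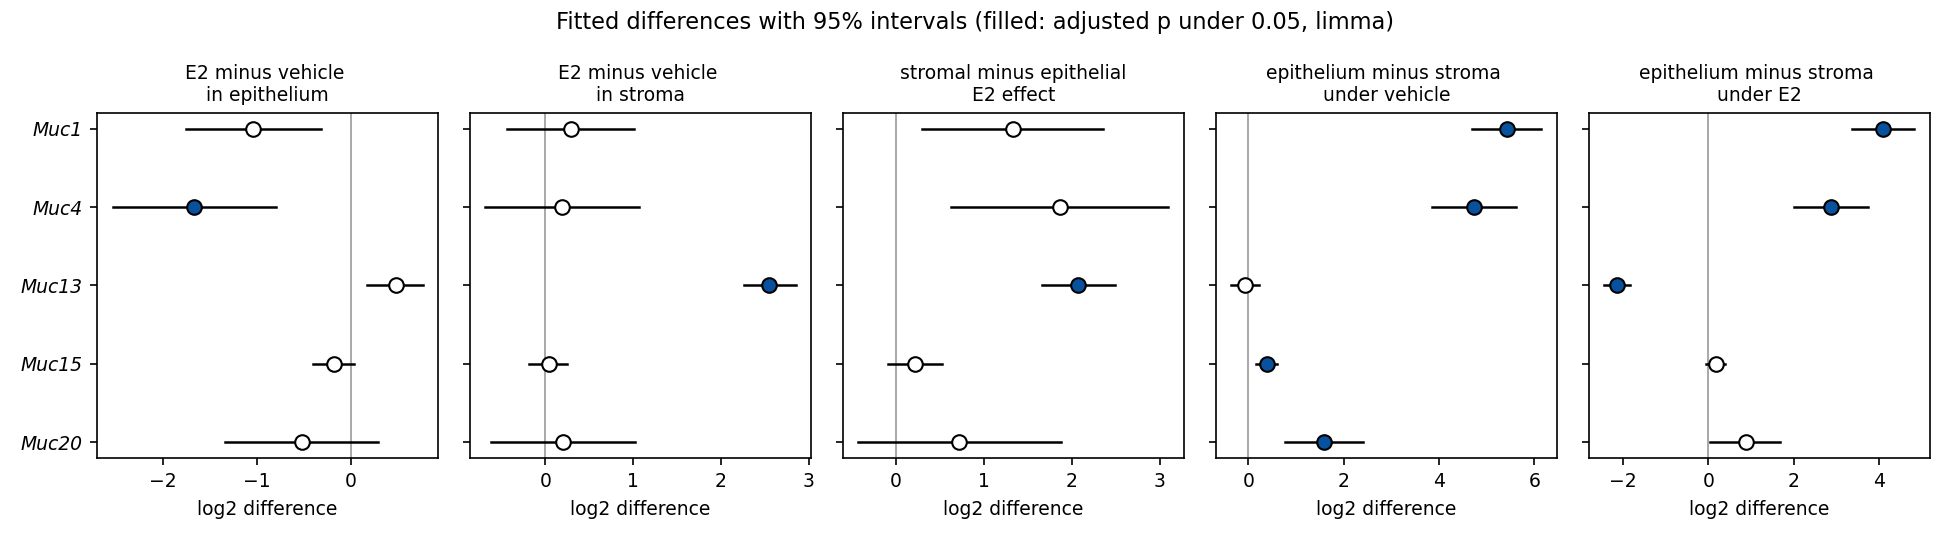
Log2 differences of the 5 mucins in the 5 comparisons, with points for the fitted value, lines for the 95% interval and filled points for an adjusted p under 0.05 (each panel has its own horizontal scale). Muc1 and Muc13 lie on opposite sides in the comparison of layers under E2, at 4.09 and -2.14, and Muc13 alone is far from 0 in stroma, at 2.55.

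Epithelial Muc1 and stromal Muc13 were then set side by side. Muc1 had its order of levels as epithelial vehicle, epithelial E2, stromal E2 and stromal vehicle, with means of 11.63, 10.59, 6.49 and 6.21. Neighbours within a layer were not shown to differ, and the step of 4.09 between epithelial and stromal E2 passed. Muc13 had the order stromal E2, epithelial E2, stromal vehicle and epithelial vehicle, with means of 8.72, 6.58, 6.17 and 6.11. Its step of 2.14 from stromal to epithelial E2 passed. Epithelial E2 and stromal vehicle, a pair not compared by the design, were not tested against each other, and the arrays of the vehicle groups overlapped. From lowest to highest array, Muc1 spanned 1.77 in epithelial vehicle, 0.41 in epithelial E2, 0.23 in stromal vehicle and 0.42 in stromal E2 arrays. Muc13 spanned 0.19, 0.20, 0.53 and 0.21 in the same groups.

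**Figure D4:**
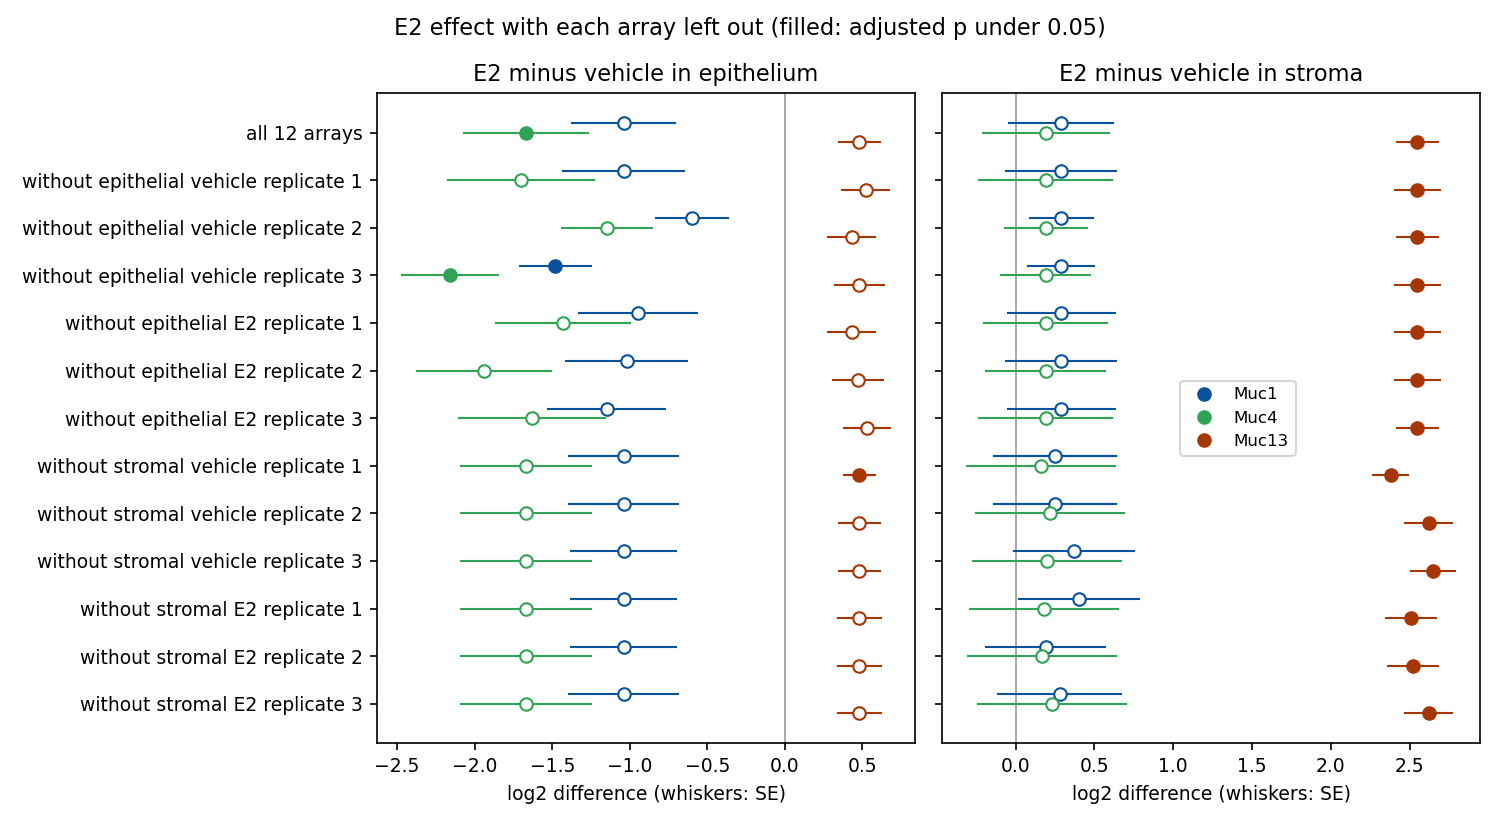
E2 effect of Muc1, Muc4 and Muc13 in epithelium (left) and stroma (right), as log2 differences with all 12 arrays and with each array left out in turn. Whiskers are standard errors and filled points have an adjusted p under 0.05. Stromal Muc13 stays between 2.38 and 2.65, and epithelial Muc1 moves between -1.48 and -0.60.

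The genes whose pattern over the 12 arrays was most like each of the pair were found by Pearson's r among probe sets with 1 symbol, as a description, since the arrays fall into layers. Those most like Muc1 were Spint2, a membrane protease inhibitor (r = 0.998), Gprc5a (0.997), Sema3f (0.997), Cldn4 (0.995) and Plet1 (0.995), of which Spint2 and Cldn4 are on the epithelial marker list. Spint2 had a mean of 11.34 in epithelial vehicle and 10.59 in epithelial E2 arrays, and its stromal means were 7.06 (vehicle) and 7.44 (E2). Those most like Muc13 were Prg4, the lubricin gene (0.988), Aldh1a1, a retinaldehyde dehydrogenase (0.982), Chst13, a sulfotransferase (0.973), Ear6, an eosinophil-associated ribonuclease (0.971), and Plcxd1 (0.969). Prg4, itself a mucin-like secreted glycoprotein, went from 5.21 under vehicle to 8.80 under E2 in stroma and from 5.37 to 5.86 in epithelium. Ear6 had stromal means of 6.19 (vehicle) and 8.58 (E2), and epithelial means of 6.16 and 6.41. Among the 5 mucins, r was 0.98 between Muc1 and Muc4, 0.94 between Muc15 and Muc20 and -0.49 between Muc1 and Muc13.

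The genes lie on 3 chromosomes. In the RefSeq table Muc4 and Muc20 are neighbours with overlapping spans on chromosome 16, on opposite strands, and Muc13 lies elsewhere on that chromosome, between Heg1 and Itgb5. Muc1 is on chromosome 3 between Thbs3 and Trim46, and Muc15 is on chromosome 2, within the span of Ano3. The span of Muc13 overlaps that of the long noncoding RNA gene Gm15658. Whether any probe lies in an overlapping part was not tested.

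Other mucins were also on the array. Of 8 secreted or large mucins measured (Muc2, Muc3, Muc5ac, Muc5b, Muc6, Muc16, Muc19 and Mucl2), 0 passed limma's test with E2 in either layer. Their medians were 0.10 in epithelium and 0.02 in stroma. Of all probe sets 2.9% passed with E2 in epithelium and 3.5% in stroma. Muc16, a large cell-surface mucin, was higher in epithelium than in stroma under vehicle (0.93 ± 0.14, adjusted p = 0.000980) and under E2 (1.07 ± 0.14, adjusted p = 0.000522), with group means of 4.64 to 5.73. Muc2, the gel-forming mucin of the gut, was lower in epithelium under vehicle (-0.57 ± 0.16, adjusted p = 0.0234), a call lost without stromal vehicle replicate 2 or 3 (highest adjusted p = 0.102), with array weights (-0.34, adjusted p = 0.0639) and on the 6 arrays compared (adjusted p = 0.0796). The gel-forming Muc5b had group means between 6.57 and 6.72.

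The pathway genes named as changed with E2 in epithelium from here on, 8 in all, each passed over the 12 arrays. All 8 calls were lost when the 6 epithelial arrays were fitted alone (adjusted p = 0.0634 to 0.335). The 14 calls in stroma were kept on the stromal arrays alone (highest adjusted p = 0.0312). Among all probe sets, 1.77% passed as higher and 1.12% as lower with E2 in epithelium, and 1.52% and 1.98% in stroma. Between layers under vehicle, 7.27% passed as higher in epithelium and 14.1% as lower.

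Membrane proteins built like mucins changed in a few cases. Of 10 measured, Parm1 rose in epithelium with E2 (0.95 ± 0.21, adjusted p = 0.0356), a call kept in 5 of 12 fits that left out 1 array. In stroma the podoplanin gene Pdpn (-1.13 ± 0.19, adjusted p = 0.00702) and the sialomucin Cd34 (-0.95 ± 0.22, adjusted p = 0.0330) fell, and the Pdpn call held in all 12 such fits and the Cd34 call in 5. With the replicate number as a block the Cd34 call was lost (adjusted p = 0.0508). Under vehicle, epithelium had more Podxl, podocalyxin (1.92 ± 0.28), and less Parm1 (-1.88 ± 0.21), Selplg (-0.65 ± 0.11) and Cd34 (-1.06 ± 0.22) than stroma.

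Among the enzymes that start O-linked chains, 2 rose in stroma with E2 as Muc13 did. Galnt15 rose from 7.68 ± 0.43 (SD) to 9.75 ± 0.28 (SD), by 2.07 ± 0.20 (adjusted p = 0.000251), and Galnt13 from 5.11 ± 0.12 (SD) to 6.32 ± 0.15 (SD), by 1.21 ± 0.12 (adjusted p = 0.000309), both calls holding with each array left out. Galnt16 fell (-0.82 ± 0.19, adjusted p = 0.0389), a call kept in 5 of the 12 fits. The other 15 of the 18 GalNAc transferases did not pass, and the list median was -0.04. In epithelium Galnt10 fell (-0.53 ± 0.12, adjusted p = 0.0433), its call held in 3 of the 12 fits and was lost with the replicate block (adjusted p = 0.0518), 17 others did not pass, and the median was -0.26. Galnt3 was higher in epithelium than in stroma under vehicle (3.00 ± 0.46, adjusted p = 0.000942), with Galnt12 (1.07 ± 0.22) and Galnt14 (0.74 ± 0.15), and Galnt16 was lower (-1.63 ± 0.19).

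Of 23 enzymes that lengthen or cap the chains, St6galnac6, a sialyltransferase, rose in epithelium with E2 (0.78 ± 0.14, adjusted p = 0.0160) and St3gal4, another, fell (-0.69 ± 0.15, adjusted p = 0.0338). In stroma the branching enzyme Gcnt4 (-1.04 ± 0.22, adjusted p = 0.0217) and the sulfotransferase Chst2 (-0.87 ± 0.17, adjusted p = 0.0142) fell. The list medians were -0.15 and 0.06. These 4 calls held in 9, 3, 7 and 8 of the 12 fits that left out 1 array. Between layers under vehicle 5 were higher and 5 lower in epithelium, where 7.27% and 14.1% of all probe sets passed. Among them were the fucosyltransferase Fut2 (2.73 ± 0.44, adjusted p = 0.00119) and Gcnt4 (-2.38 ± 0.22, adjusted p = 3.61e-05).

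Of the proteases that can release mucins from the surface and their regulators, those that passed with E2 were lower. The membrane metalloproteinase Mmp14 fell in epithelium (-0.81 ± 0.09, adjusted p = 0.00104) and in stroma (-0.63 ± 0.09, adjusted p = 0.00238), the sheddase Adam17 fell in stroma (-0.51 ± 0.09, adjusted p = 0.0116), and Rhbdf1, a partner of Adam17, fell in epithelium (-0.46 ± 0.09, adjusted p = 0.0250). In stroma Timp1, an inhibitor of metalloproteinases, fell too (-0.66 ± 0.15, adjusted p = 0.0330). Of 11 measured, 2 fell in epithelium and 3 in stroma and 0 rose, where 1.12% and 1.98% of all probe sets passed as lower. The list medians were -0.36 and -0.16. The Mmp14 calls held with each array left out, although the epithelial one was lost on the 6 epithelial arrays alone (adjusted p = 0.0634), and those of Adam17, Rhbdf1 and Timp1 held in 9, 8 and 5 of 12 fits.

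Partners of mucin tails changed in both directions among 17 measured. Ezr, the ezrin gene, whose product links membrane proteins to actin, rose in epithelium (0.44 ± 0.09, adjusted p = 0.0240) and in stroma (0.63 ± 0.09, adjusted p = 0.00224). Its relative Rdx, radixin, rose in stroma (0.65 ± 0.12, adjusted p = 0.0115) where Msn, moesin, fell (-0.40 ± 0.09, adjusted p = 0.0306), and so did the kinase gene Prkcd (-0.35 ± 0.08, adjusted p = 0.0248). Met, the receptor that Muc20 can bind, fell in epithelium (-1.36 ± 0.31, adjusted p = 0.0421), a call kept in 2 of 12 fits that left out 1 array. The Ezr call held in 8 of those fits in epithelium and 12 in stroma, and the calls of Rdx, Msn and Prkcd in 9, 6 and 6. Between layers under vehicle, 6 of the 17 passed as higher in epithelium and 3 as lower, where 7.27% and 14.1% of all probe sets passed. In all 11 measured lower, and the list median was -0.12. Among the 6 that were higher were Ezr (1.84 ± 0.09), Met (4.03 ± 0.31) and Erbb3, the partner of Erbb2 (2.85 ± 0.36).

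**Figure D5:**
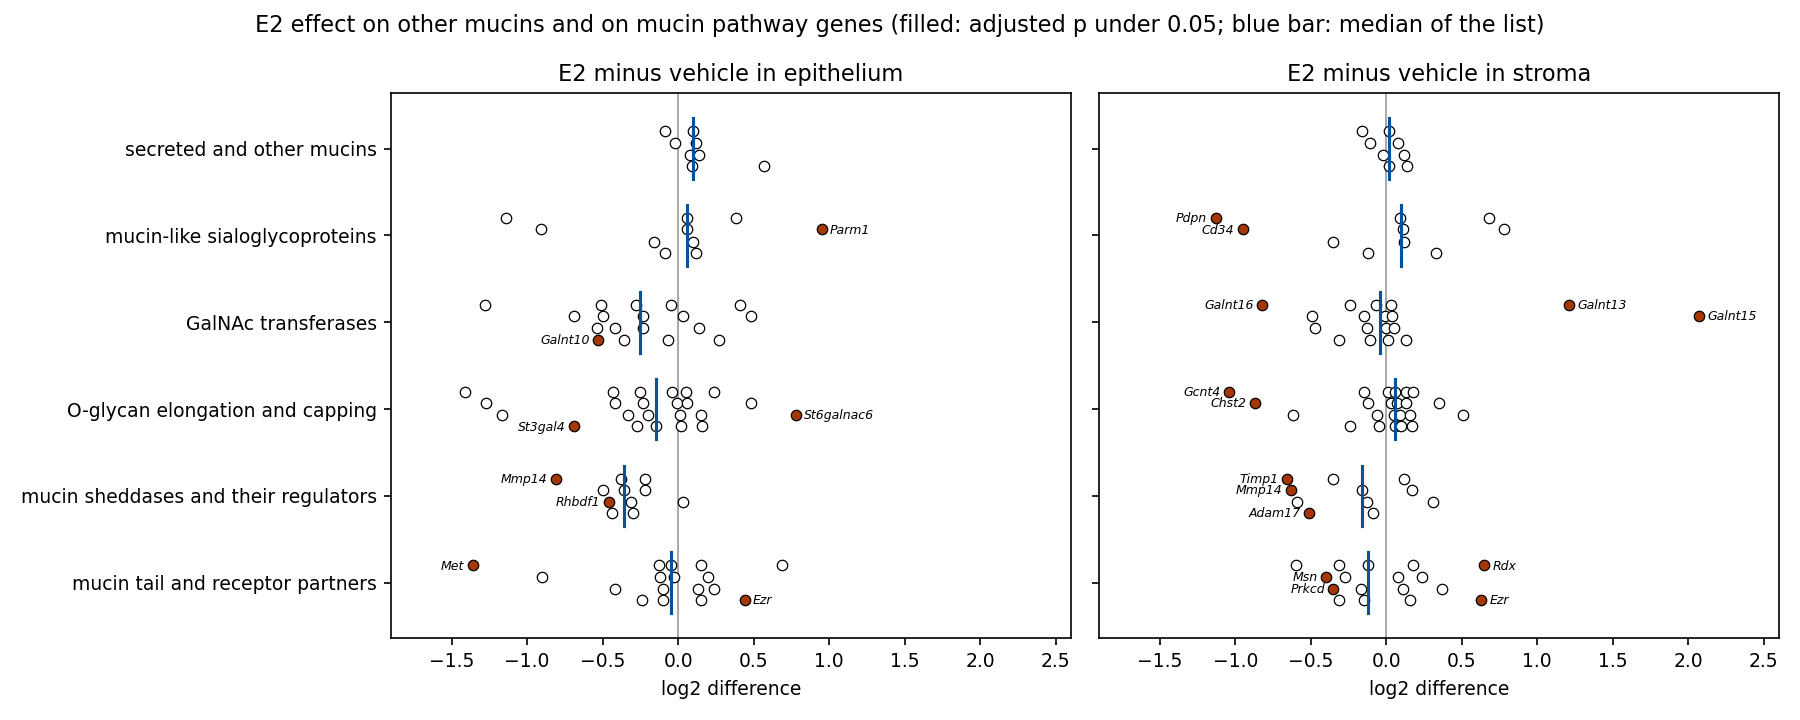
E2 effect (log2 difference) on the genes of 6 lists, in epithelium (left) and stroma (right). Points are genes, filled and named where the adjusted p was under 0.05, and the blue bar is the median of the list. In stroma Galnt15 (2.07) and Galnt13 (1.21) lie far to the right of the list median of -0.04, and none of the 8 other mucins is filled in either layer.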

How the data were processed

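RNA of the separated layers was hybridised to Affymetrix Mouse Gene 1.0 ST arrays. The deposited values are log2 signals made by the authors with RMA, per the submitters' processing notes; its version and settings are not given in the sources used here. The 12 arrays had values from 3.2 to 14, 0 identical pairs and 0 columns of no sample, and scanner files and scan dates were not used here, so background correction and scan batches could not be tried. Gene symbols came from the platform annotation: 21789 of the 35556 probe sets had exactly 1, 1621 several and 12146 none.

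Differences were fitted with limma 3.58.1 in R 4.3.3 (lmFit, eBayes) on the values as deposited, over all 12 arrays and the 4 groups, with 8 residual and 3.27 prior degrees of freedom, two-sided. The procedure was tested on simulated data. Where a list gene had several single-symbol probe sets, the one with the highest mean was used. The members, the 12 further lists (6 of them cell type markers) and the tests were chosen with earlier results of these data known. Of each list, up to 4 genes past the threshold were named by smallest p, and some of the other mucins also where they did not pass. Alternatives were 3 scalings, a mean of at least 6, all probe sets, a variance trend with robust prior, array weights, replicate blocks, the arrays compared alone, other thresholds and leaving out each array.

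Deviations from the group means were compared between arrays with the same replicate number. They correlated weakly between the vehicle layers (residual r = 0.17, 0.14 and 0.13) and without a common sign between the E2 layers (-0.31, 0.23 and -0.06). For each epithelial vehicle array, the stromal vehicle array most like it had the same number. Under E2 this held for replicate 2 alone. Whether a number marks a shared co-culture is not in the labels. The comparisons were not paired.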

Additional observations from a re-analysis of the deposited data

Results flagged for a closer look

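The E2 effect differed between the layers, by the test of that difference, for 3 of the 92 mucins and mucin pathway genes measured, where 0.91% of all probe sets passed (0.269% higher and 0.641% lower in stroma). Muc13 rose more in stroma, by 2.07 ± 0.19 (limma, adjusted p = 0.00197). Its 3 stromal E2 arrays lay above every stromal vehicle array, as for 15.9% of all probe sets. Galnt15 also rose more in stroma, by 1.59 ± 0.29 (adjusted p = 0.0289), a call kept in 4 of 12 fits that left out 1 array and lost over all probe sets of the table (adjusted p = 0.0601). Gcnt4 had a lower E2 effect in stroma than in epithelium, by -1.53 ± 0.31 (adjusted p = 0.0478), and its call was kept in 3 of those 12 fits. It was also lost after median centring (adjusted p = 0.0567), quantile normalization (0.0887) and cyclic loess (0.0514) and over all probe sets (0.0930).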

How the results depend on the processing

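The Muc13 rise in stroma and its difference between layers passed in every alternative run, as did Muc1 and Muc4 between layers under either treatment. For the 6 other mucin lists, 64 calls were followed, up to 4 per list and comparison by smallest p. Further, weaker calls of these lists are not among the 64. Of the 64, 41 were kept in every refit and 0 turned direction. The other thresholds were applied to counts alone and are not part of that share. On the 6 arrays compared, 8 of 8 such calls with E2 in epithelium were lost. Each member had 1 probe set, so averaging probe sets gave no further value, and Muc15 was below the filter on means under 6. Muc4 with E2 in epithelium did not pass after median centring (-1.66), over all probe sets, with a variance trend and robust prior or on the 6 arrays compared (each -1.67), which left 0 of the 5 mucins passing there, as did a threshold of 0.01. Muc15 in stroma with E2 was -0.01 under quantile normalization and 0 under cyclic loess, and between vehicle layers it did not pass under them (0.23 and 0.27). With array weights, which ranged from 0.12 to 6.69, Muc1 (-0.88) and Muc13 (0.45) also passed in epithelium (3 mucins), Muc1 (1.26) and Muc4 (1.27) in the difference of E2 effects (3 mucins) and Muc20 between E2 layers (0.74), while Muc13 between vehicle layers turned to 0.04. In these 3 comparisons the weighted fit passed 4706, 4488 and 11798 of the 23410 probe sets. On the 6 arrays compared, Muc15 (0.39) and Muc20 (1.59) did not pass between vehicle layers (2 mucins, also 2 at a threshold of 0.01), and Muc20 passed between E2 layers (0.87). At a threshold of 0.1, 2 mucins passed in epithelium.

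Probe sets passing moved from 678 with E2 in epithelium to 1099 under quantile normalization, 4706 with array weights, 49 on 6 arrays, 210 at 0.01 and 1289 at 0.1. In stroma 820 became 4503 with array weights, 2142 on 6 arrays and 361 at 0.01. For the difference of E2 effects 213 became 128 over all probe sets, 4488 with array weights, 46 at 0.01 and 404 at 0.1. Between layers, 5001 under vehicle became 9867 with array weights and 2709 at 0.01, and 3184 under E2 became 11798 and 1652.

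Leaving out each array gave 219 to 1634 probe sets with E2 in epithelium (0 to 2 mucins), 413 to 1342 in stroma, 81 to 725 for the difference of E2 effects (1 to 3 mucins), 3385 to 7197 between vehicle layers (3 to 4) and 1953 to 4636 between E2 layers (3 to 4). In epithelium with E2, Muc1 ranged from -1.48 to -0.60, Muc4 from -2.16 to -1.15, Muc13 from 0.43 to 0.53 and Muc20 from -0.85 to 0.03. Between vehicle layers, Muc13 ranged from -0.23 to 0.03, with 0.01 without stromal vehicle replicate 2, and Muc15 from 0.30 to 0.49. The difference of E2 effects ranged from 0.88 to 1.77 for Muc1 and 1.34 to 2.35 for Muc4, and Muc20 between E2 layers from 0.64 to 1.04. The replicate block over 12 arrays changed no call on a mucin (Muc4 in epithelium -1.67, adjusted p = 0.0343), and 2 of the 64 list calls were lost, Cd34 in stroma (adjusted p = 0.0508) and Galnt10 in epithelium (0.0518). The causes of these changes were not tested. The 3 arrays per group limit what can be detected.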
